A study of Mus musculus with 9 samples.

Results

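Proximal tubule cells are the kidney epithelium that takes back most of what the glomerulus filters, and 10 genes of their reabsorption and metabolism were followed here in Glis3 mutant and wild-type (WT) mouse RNA. The genes are Slc34a1, Slc5a2, Slc7a9, Lrp2, Cubn, Aqp1, Miox, Fbp1, Pck1 and Kap. The list of genes was drawn up with earlier results of these data known. Every non-control probe that carries one of these symbols was taken whatever its value, which gave 14 probes of 41174, and 10 of the 20922 genes measured. Of these genes 8 had 1 probe, Slc34a1 had 2 and Lrp2 had 4.

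The series asks how gene expression differs between C57BL/6 mice homozygous for the Glis3zf mutation (Glis3zf/zf) and WT mice of the same strain, in RNA labelled as pancreas. Glis3 is a zinc finger transcription factor. On postnatal day 3 (PND3), RNA of 2 mutant pups was pooled, as was RNA of 2 WT pups, and 500 ng of each pool was labelled with Cy3 or Cy5. The pools shared 2 Agilent 2-colour arrays: the Cy3-mutant array, where WT RNA was in Cy5, and the Cy5-mutant array, where the dyes were exchanged. The arrays are a technical pair, so there was 1 pool per genotype, no estimate of the spread between animals, no test and no p-value, and the number of arrays limits the precision. The 7 samples of embryonic day 15.5 (3 WT, 4 mutant) carry probe set identifiers without gene names and were not analysed here.

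In the proximal tubule, carriers of the luminal membrane, some of them sodium-coupled, take up phosphate, glucose and amino acids. The receptors megalin and cubilin take up filtered protein by endocytosis, and aquaporin-1 lets water follow. The same cells make glucose from lactate and amino acids, and break down myo-inositol. Kap, an androgen-regulated transcript, is a classical product of the mouse proximal tubule.

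The tissue label was set against marker genes. All 14 member probes stood well above background in either pool, whichever the dye. In all 4 channel readings the scanner's processed signal passed 1000 for 9 of the 10 genes, and for 8501 of the 20922 genes measured. It passed 1000 for 0 of the 6 islet markers measured and for 0 of the 9 acinar markers measured. The insulin gene Ins2 had a mean signal of 88.4 for mutant and 88.3 for WT RNA, the carboxypeptidase gene Cpa1 had 43.5 and 56.7, and the trypsinogen gene Prss2 had 26.8 and 24.2. Defining markers of pancreas were thus dim in both pools, and "pancreas" is used below as the submitters' label only. Glis3 itself was well above background on 2 of 2 arrays for WT RNA and on 0 of 2 for mutant RNA (mean signals 21.8 and 3.63), which puts the mutant level at least 1.16-fold lower.

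Each probe is 60 bases long, and the last 30 bases of those the comparison rests on are given 5′ to 3′ as the array file lists them, to show which stretch of each transcript was read. Capitals mark AATAAA, the hexamer that commonly signals polyadenylation, searched on the listed strand only. It occurred in 2 of the 14 probes, those of Miox and Aqp1, and in 4.78% of all probes.
Kap: gatgagaaatgctgtgccaggcatctctaa
Miox: gtcacgtttgctgggtatcAATAAAagaat
Slc7a9: cttgatcctggctccaatcatcagtgagcc
Lrp2 probe 1: atattgcacgtgtgttaacgaatgaatgga
Lrp2 probe 2: ttagacactcacttttgcacatatattttt
Lrp2 probe 3: gagactcatcataaacgatgcaatgaagcc
Lrp2 probe 4: caagtgtgctgacgggagttcttgcattaa
Pck1: ttacataattgaaattggtatccggaccac
Aqp1: tcttatggtaagaaAATAAAggacaatgac
Slc34a1 probe 1: accattagtgcgggtgtaatgtgagtacac
Slc34a1 probe 2: cgacagactggtactctaccacccgaaagg
At least 1 of the 3 reading frames of the listed strand was free of stop codons before its last codon in 10 of the 14 probes, beside 79.9% of all probes. A stop as the last codon of a frame was allowed. The 4 Lrp2 probes ended in different sequence, as did the Slc34a1 pair, but whether the full probes overlap was not tested.

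Of the 10 genes, 4 were lower in the mutant pool on both arrays (Kap, Miox, Slc7a9 and Lrp2). Higher on both were 2 (Pck1 and Slc34a1, the latter read from the dimmer of its 2 probes). The other 4 had opposite signs on the arrays (Slc5a2, Cubn, Fbp1 and Aqp1). Ratios are log2 of mutant over WT after loess normalization within each array, averaged over both arrays. They ran from -0.59 for Kap to 0.19 for Pck1, with a median of -0.08, where the median of all genes was -0.01. No member reached 2-fold in 1 direction on both arrays (0 of 10), a size that 0.191% of genes reached. None reached 1.5-fold either (0 of 10), beside 0.884% of all genes and 0.382% of the brightest 10% of genes, which held 8 of the 10. The same sign on both arrays was found in 6 of the 10, beside 68.7% of all genes. Levels of mutant and WT did not overlap for 6 of the 10, beside 60.4% of all genes, so neither share stood far from the background. In such bulk RNA, fewer cells of a type and less RNA per cell cannot be told apart.

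**Figure D1:**
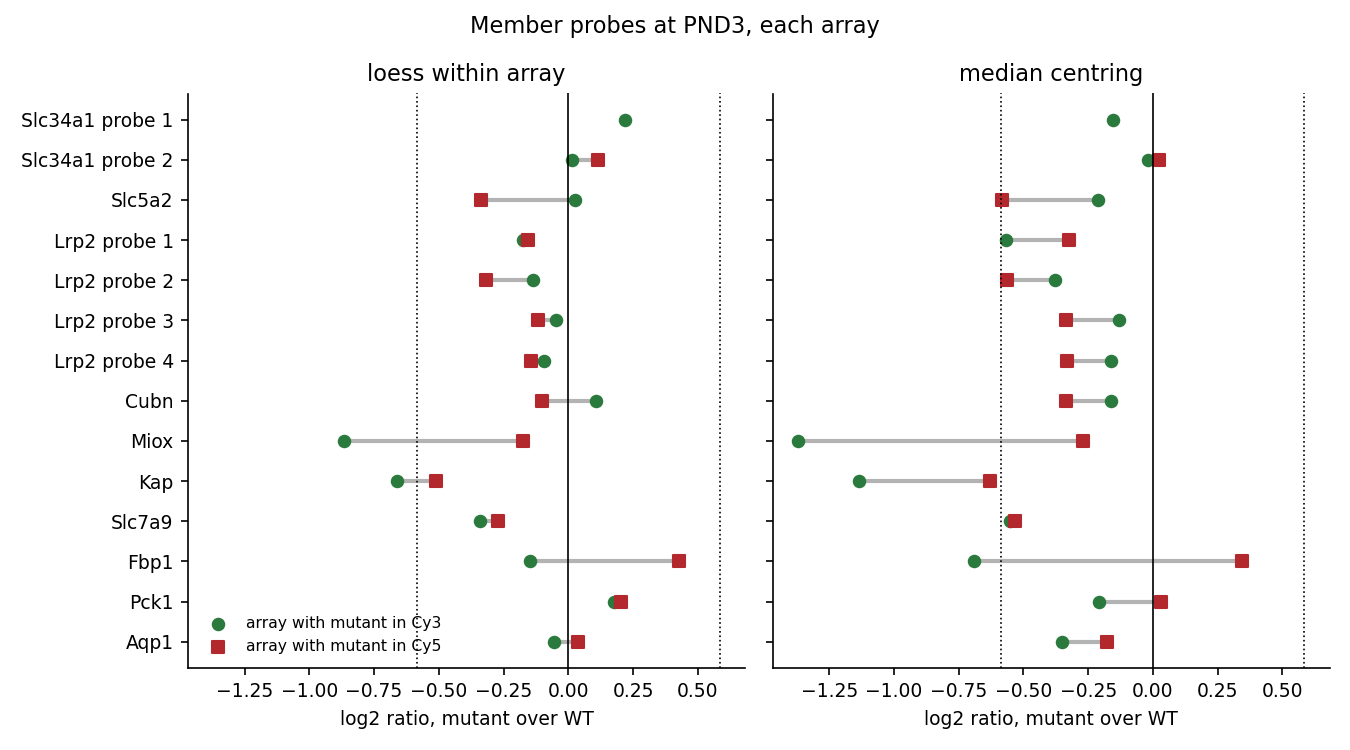
Log2 ratio of mutant over WT for each of the 14 probes on both arrays (circle, mutant in Cy3; square, mutant in Cy5; grey bar, the gap between them), after loess on the left and after median centring on the right; dotted lines mark 1.5-fold. With loess, Kap, Miox, Slc7a9 and all 4 Lrp2 probes lie below 0 on both arrays, and with median centring most probes move to the left.

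Kap had the lowest mean ratio of the 10. Its log2 level was 15.74 and 15.83 in the mutant pool (Cy3-mutant array first, as throughout) and 16.40 and 16.34 in the WT pool. Both mutant readings were below both WT readings, and the ratios of -0.66 and -0.51 average to a WT level 1.5-fold above the mutant. The scanner's processed signals were 56700 and 53500 in mutant and 82800 and 81900 in WT. Of the 2093 genes in the brightest 10%, 7 (0.334%), Kap included, had a mean ratio as low or lower. The ratio stayed between -0.88 and -0.51 over 12 alternative settings, though some of these could not change a gene with 1 bright probe. Since Kap responds to androgens, the sex-linked transcripts were read beside it: the Y-linked Ddx3y, Eif2s3y and Kdm5d had ratios of 0.91, 1.29 and 0.37, all higher in the mutant pool on both arrays, while Xist, transcribed from the inactive X chromosome, had 0.03. The part of pup sex in the Kap value was not tested.

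Miox encodes myo-inositol oxygenase, which opens the inositol ring for breakdown in the tubule. Its log2 level was 15.99 and 16.42 in mutant and 16.86 and 16.59 in WT. The mutant readings lay below the WT readings, but the ratio was -0.87 on one array and -0.17 on the other, a gap of 0.69. The mean of -0.52 corresponds to a WT level 1.43-fold higher, and 9 genes of the brightest 10% (0.43%), Miox included, were as low or lower. With this loess the Cy3-mutant array gave the larger ratio, and the direction was seen on both arrays. With the scanner's processed ratio the arrays lay closer, at -0.62 and -0.39.

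Slc7a9 encodes the light subunit of the luminal carrier for cystine and dibasic amino acids. Its log2 level was 12.68 and 12.66 in mutant and 13.02 and 12.94 in WT, with no overlap. The ratios of -0.34 and -0.27 lay close together, and their mean of -0.31 is a WT level 1.24-fold higher. Slc3a1, the heavy subunit that pairs with it in the membrane and named here after its values were seen, had ratios of 0.38 and 0.27, higher in the mutant pool. The subunits of this carrier thus had opposite signs on both arrays. With median centring Slc3a1 had a mean of 0.08 and Slc7a9 of -0.54.

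The endocytic receptors differed little. Lrp2 encodes megalin, and each of its 4 probes was lower in the mutant pool on both arrays with no overlap of levels. The brightest, probe 1, had ratios of -0.18 and -0.16, a mean of -0.17 and a WT level 1.12-fold higher, from processed signals of 39900 and 35800 in mutant and 42600 and 41200 in WT. The other Lrp2 probes had means of -0.23, -0.08 and -0.12, so all 4 probes gave one direction with small sizes. These probes read the same RNA and are no replicates of the comparison. Cubn, whose product cubilin binds filtered protein and the vitamin B12 carrier, had 0.11 and -0.10, a mean of 0.00, and its levels overlapped.

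The luminal carriers of phosphate and glucose were close to even. Slc34a1 encodes the main sodium-phosphate cotransporter. Its bright probe (probe 1) could be used on 1 array alone, with a ratio of 0.22 (-0.16 with median centring) and signals of 41500 in mutant and 32400 in WT. The scanner software marked that probe as an outlier on the other array, where its ratio would be 0.08. The dim probe 2 had 0.02 and 0.11, from signals of 154 and 145 in mutant and 146 and 124 in WT. Its mean of 0.06 stands for the gene in counts and medians. It is listed under a different sequence record from probe 1, and whether both read the same transcript was not tested. With loess, the usable Slc34a1 readings were all above 0 and small. Slc5a2, the glucose carrier SGLT2, had 0.02 and -0.34 with overlapping levels and a mean of -0.16. Aqp1, the water channel, had -0.06 and 0.04 with overlapping levels and a mean of -0.01. With loess, neither Slc5a2 nor Aqp1 kept a direction across the dye exchange. With median centring both were lower in the mutant pool on both arrays, Slc5a2 at -0.21 and -0.58 and Aqp1 at -0.35 and -0.18. With the scanner's processed ratio Slc5a2 had -0.05 and -0.30, while Aqp1 had -0.11 and 0.11.

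Both gluconeogenic enzymes among the 10 were read from bright spots. Pck1 encodes the cytosolic phosphoenolpyruvate carboxykinase, which turns oxaloacetate into phosphoenolpyruvate. Its log2 level was 15.13 and 15.11 in mutant and 14.96 and 14.90 in WT, and its ratios of 0.18 and 0.20 give a mutant level 1.14-fold higher. This was the highest ratio of the 10, but 220 genes of the brightest 10% (10.5%), Pck1 included, were as high or higher. With median centring its ratios were -0.21 and 0.03, a mean of -0.09, so its direction depends on the scaling. Fbp1, fructose-1,6-bisphosphatase, had -0.15 and 0.43, a gap of 0.58, with overlapping levels and a mean of 0.14 that gives no direction.

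**Figure D2:**
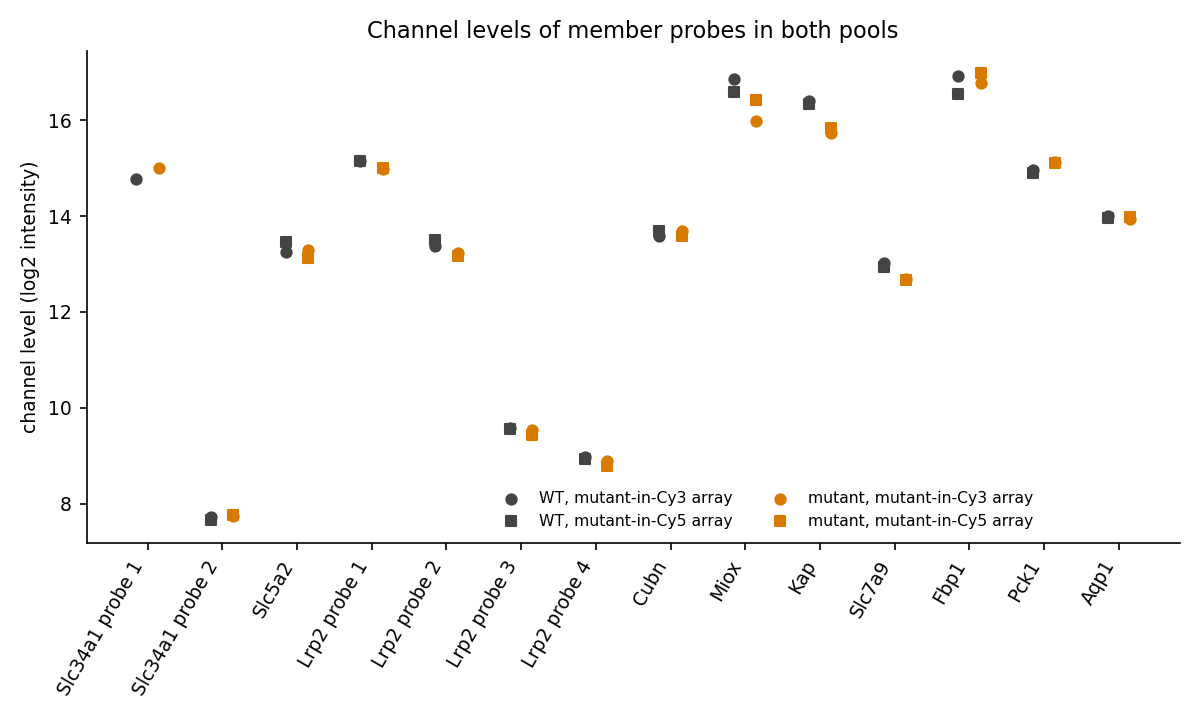
Log2 channel level (after loess and Aquantile) of each of the 14 probes in the WT pool (grey) and the mutant pool (orange), on the Cy3-mutant array (circles) and the Cy5-mutant array (squares). Levels of Kap, Miox and Slc7a9 in the mutant pool lie below both WT readings, those of Fbp1 cross, and heights of different probes are not amounts of RNA.

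The gap between the arrays grew with spot brightness, which bears on these genes. Probes spotted 10 times on an array (245 of them) had a median SD of the log2 ratio between spots of 0.064 and 0.059, so spots of 1 array repeat closely. The gap is the ratio on the Cy5-mutant array minus that on the Cy3-mutant array, and a dye effect on a probe enters it but cancels in the mean of both arrays. Its median size was 0.106 over all genes, 0.138 over the brightest 10% and 0.125 over the 10 members. Among the 200 brightest genes, which include Miox, Kap and Fbp1, the median gap was 0.43 and 194 of 200 gaps were above 0. With median centring that median was 0.84, with the scanner's own processed ratio 0.11, and with a loess span of 0.1 in place of 0.3, chosen after the gap was seen, 0.14. With the narrow span, Miox had ratios of -0.71 and -0.32, Kap -0.53 and -0.63, and Fbp1 0.04 and 0.26. The gap of Miox thus shrank while its mean stayed at -0.52.

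**Figure D3:**
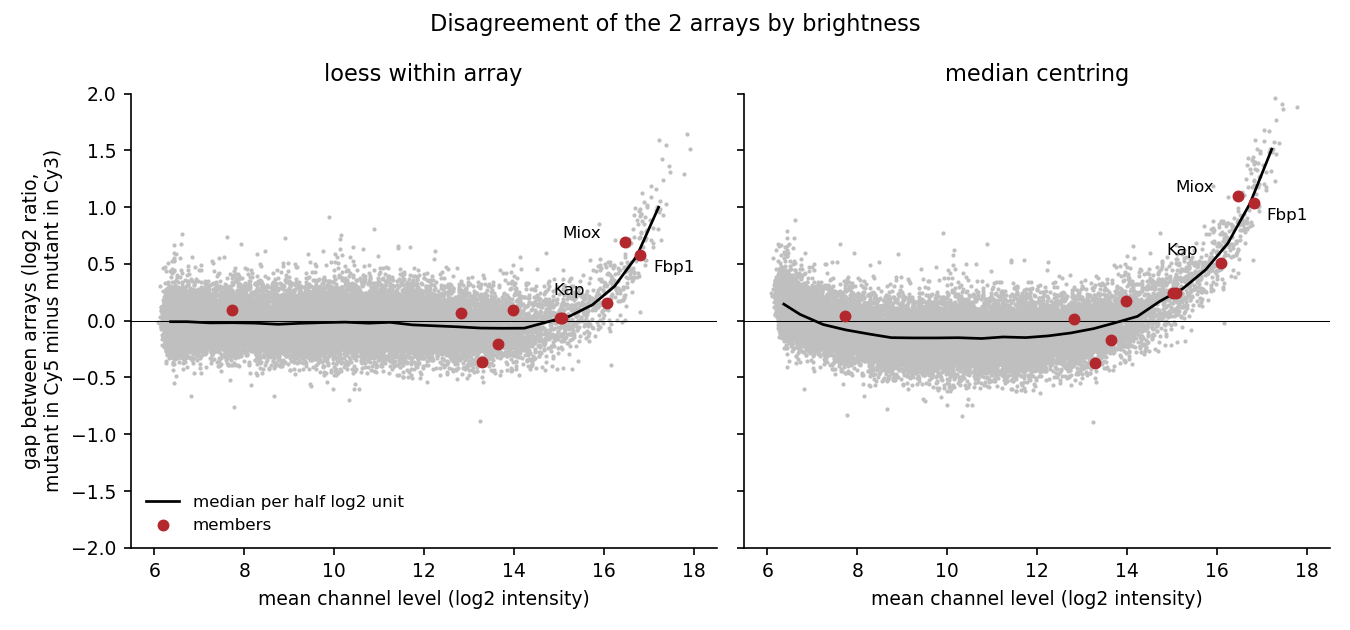
Gap between the arrays (log2 ratio with mutant in Cy5 minus with mutant in Cy3) against mean log2 channel level, for all genes measured (grey), the 10 members (red) and the median per bin of level (line), with loess on the left and median centring on the right. The line leaves 0 above a level of about 15 in the left panel, where Miox (0.69) and Fbp1 (0.58) sit.

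Of the alternatives run, median centring moved the members' median most. It lowered the median ratio of all genes to -0.11 and that of the brightest 10% to -0.27, and that of the 10 members to -0.33. Relative to the median of all genes, the members stood at -0.07 with loess and -0.22 with median centring. All genes are no match in brightness: the brightest 10%, which held 8 of the 10, had -0.006 with loess and -0.27 with median centring. With median centring Kap had ratios of -1.14 and -0.63 and passed 1.5-fold on both arrays, which 277 of the 20922 genes measured then did. Miox had -1.37 and -0.27, and Slc7a9 had -0.55 and -0.53. The bright Lrp2 probe then had a mean of -0.44, and Slc5a2, Cubn and Aqp1 had means of -0.40, -0.25 and -0.26. Slc5a2, Cubn and Aqp1, of opposite signs on the arrays with loess, were thus lower on both arrays with median centring (Cubn at -0.16 and -0.33). Kap, Miox, Slc7a9 and Lrp2 were lower in the mutant pool under both scalings, and the directions of Cubn, Fbp1 and Pck1 were not the same under both. Slc34a1 lost its shared direction too: with median centring its dim probe had -0.02 and 0.02.

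**Figure D4:**
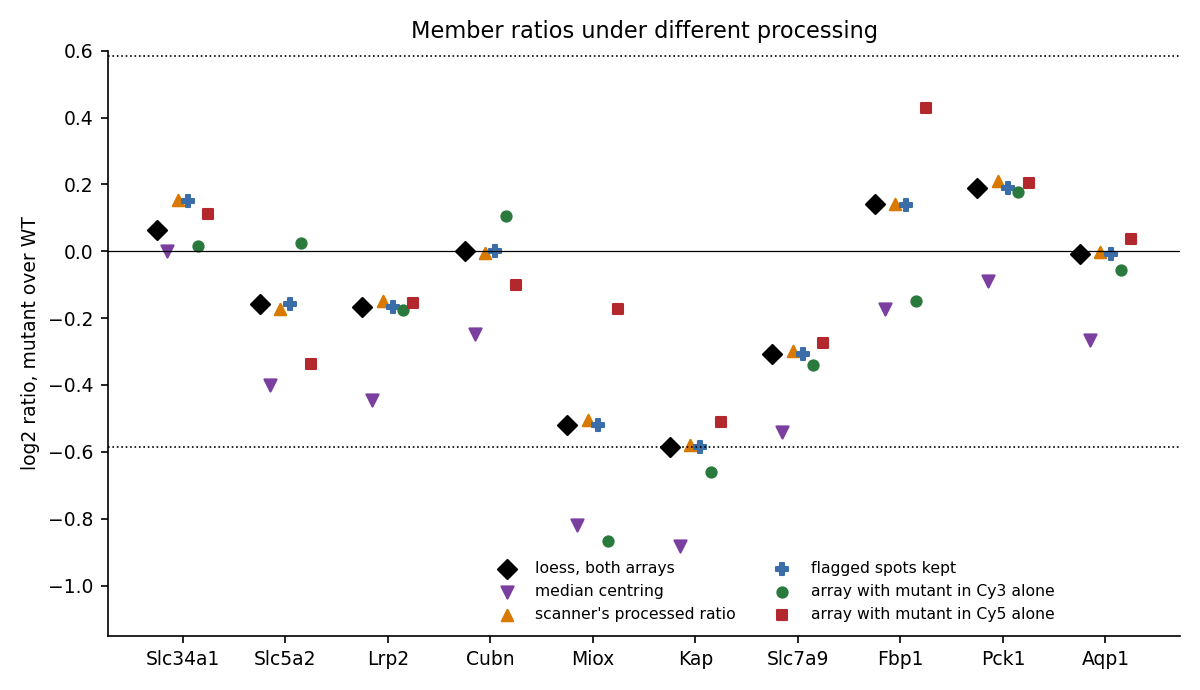
Log2 ratio of mutant over WT of each of the 10 genes under 6 treatments of the data: loess with both arrays, median centring, the scanner's processed ratio, flagged spots kept, and each array alone. Dotted lines mark 1.5-fold; Kap, Miox, Slc7a9 and Lrp2 lie below 0 under every treatment drawn, and Fbp1 lies on both sides.

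The members were then read beside 121 other genes of the proximal tubule, all of them measured. Their median ratio was 0.02, with 42 lower and 48 higher on both arrays. At 1.5-fold on both arrays 4 were lower and 2 higher, and 0 passed 2-fold. These 6 are 4.96% of the list, beside the 0.884% of all genes given above (131 lower and 54 higher). The list was chosen with earlier results of these data known, so this is no independent comparison and shows no enrichment. All genes are no match in brightness either. Signals passed 1000 in all channel readings for 106 of the 121 listed genes, beside 8501 of the 20922 genes measured. With median centring 5 of the listed genes were 1.5-fold lower, 0 were higher and 2 passed 2-fold. The median of the list was then -0.18, beside -0.11 for all genes. Of the 20922 genes measured, 277 passed 1.5-fold and 52 passed 2-fold with that scaling. The split of directions thus depends on the scaling. The solute carriers (28 genes, median 0.10) had 8 lower and 15 higher. The lowest was the sulfate carrier Slc13a1 at -0.89 on both arrays, and the highest was Slc5a10, a sodium-coupled sugar carrier, at 0.71 and 0.54. The carriers thus spread in both directions.

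Genes of sodium, bicarbonate and water transport (9 genes, median 0.01) had 2 lower and 2 higher, from -0.42 for carbonic anhydrase Car4 to 0.41 for the bicarbonate carrier Slc4a4. Endocytosis genes other than Lrp2 and Cubn (11 genes, median 0.10) had 3 lower and 6 higher. Amn, the membrane partner of cubilin, was the lowest at -0.13, and the clathrin adaptor subunit Ap1m2 was the highest at 0.42. None of this list passed 1.5-fold on both arrays, like Lrp2 and Cubn themselves. Brush border enzymes (14 genes, median 0.00) had 4 lower and 4 higher, from -0.35 for the aminopeptidase Enpep to 0.30 for the glutathione-cleaving Ggt1.

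Gluconeogenesis and fructose genes other than Fbp1 and Pck1 (11 genes, median 0.04) had 5 lower and 2 higher. G6pc, the glucose-6-phosphatase that ends gluconeogenesis, was lower at -0.75 and -0.69, past 1.5-fold on both arrays. The sorbitol dehydrogenase Sord was the highest at 0.13, so G6pc and Pck1, at opposite ends of one pathway, had opposite signs with loess, though not with median centring. Amino acid, vitamin and peroxisome genes (38 genes, median 0.02) had 15 lower and 17 higher. Past 1.5-fold on both arrays were the transthyretin gene Ttr at -0.99, the aminoacylase Acy3 at -0.81, the glutathione transferase Gsta2 at 0.66 and the retinol carrier Rbp4 at 0.81. Acy3 and Gsta2 were named after their values were seen. Of 10 transcription factors (median -0.05), 5 were lower and 2 higher, from -0.41 for Cux1 to 0.10 for Esrra.

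**Figure D5:**
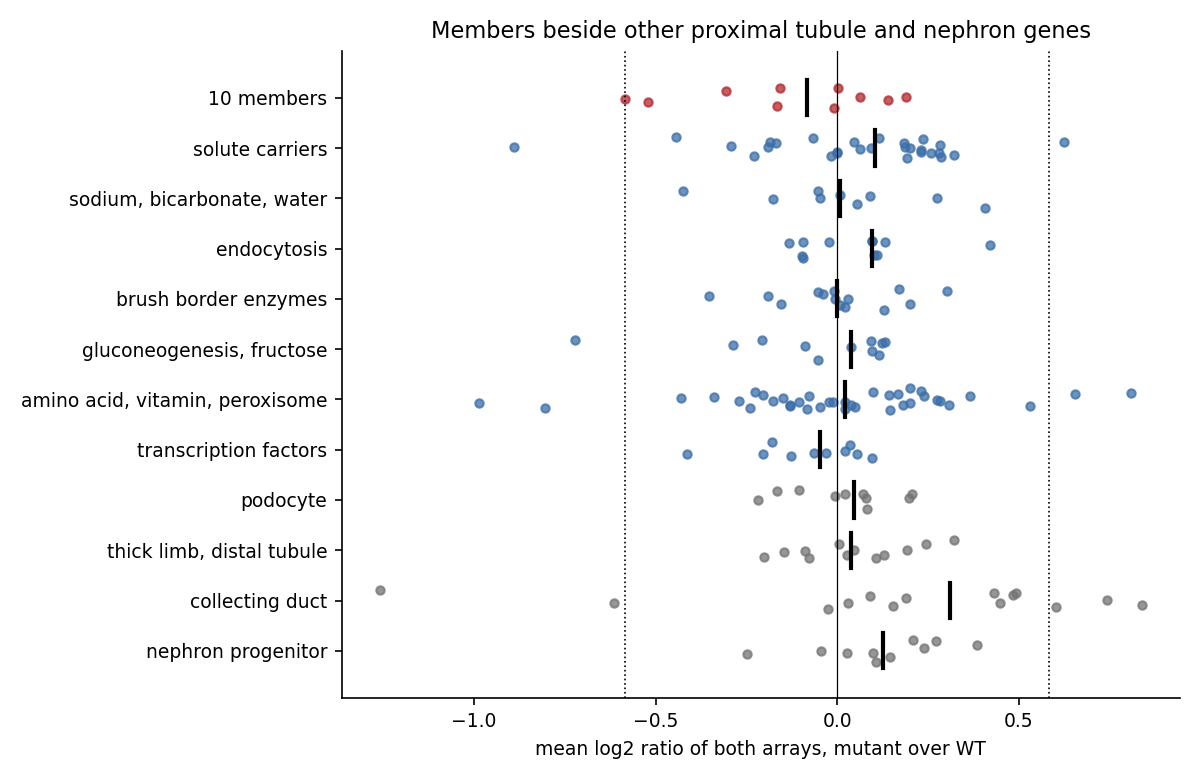
Mean log2 ratio of mutant over WT for each gene (points) of the 10 members, 7 lists of other proximal tubule genes and 4 lists of other nephron parts, with the median of each list as a bar; dotted lines mark 1.5-fold. Medians lie between -0.08 for the members and 0.31 for the collecting duct list.

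Other nephron parts gave medians of 0.04 for podocyte markers (10 genes, lowest Magi2 at -0.22), 0.04 for thick limb and distal tubule (12 genes, highest Trpm6 at 0.32) and 0.13 for nephron progenitors (10 genes, highest Osr1 at 0.38). Collecting duct markers (14 genes) had a median of 0.31, with 10 of 14 higher on both arrays. Lower on both were the anion exchanger Slc26a4 at -1.26 and Slc4a1, also in the erythroid list, at -0.61. The summed signal of the collecting duct list was 177000 to 207000 in mutant and 131000 to 137000 in WT, while that of the 10 members was 383000 to 390000 and 424000 to 458000. A few bright spots carried each gap. Without the keratins Krt8 and Krt18, named after their values were seen, the collecting duct sum was 62400 to 70600 and 59200 to 64200 and its median 0.17. Without Kap and Miox the members' sum was 239000 to 252000 and 222000 to 249000. Under median centring the medians of the 4 lists were -0.18, -0.14, -0.06 and 0.12, all above the -0.33 of the members. The lists were not matched for brightness, and with that scaling the brightest 10% of genes had a median of -0.27.

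Of the marker lists of other cells, some differed between the pools and others had medians close to even. All 8 measured fat markers were lower in the mutant pool (median -0.83, Ucp1 -1.17, summed signal 53100 to 56900 in mutant and 63100 to 69500 in WT). Of 10 oocyte and ovary markers 9 were lower (summed signal 481 to 561 and 2710 to 3000). In mutant RNA Zp2, Nobox and Figla did not clear background on either array and Dppa3 did on 1 of 2, so their ratios have no exact size: Dppa3 read -2.74 here and -5.10 with the scanner's ratio. Of 6 erythroid markers 5 were lower (median -0.38, summed signal 154000 to 159000 and 194000 to 203000, Slc4a1 -0.61). Slc4a1 is also in the collecting duct list. Of 9 leukocyte markers 7 were lower (median -0.07, summed signal 21500 to 23200 and 25500 to 28200, Tyrobp -0.58). Of 7 liver markers 2 were lower and 4 higher (median 0.05, summed signal 3170 to 3800 and 3040 to 3340, Ahsg 1.64), and of 5 intestine markers 1 was lower and 2 higher (median 0.02, Alpi -0.28); Vil1, which is also in the brush border list, had mean signals of 11200 and 11300, and the other 4 had mean signals of 16.9 to 74.4. The part of other cells in the dissected tissue in the lower Kap, Miox and Slc7a9 was not tested.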

How the data were processed

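Per the file headers, each PND3 scanner file gives intensities of spots and of their surroundings, processed signals, and a log10 ratio (Cy5 over Cy3), along with flags for spot type and quality. The deposited value table was found to hold mutant over WT as log2. Its columns followed the scanner's ratios (r = 0.9996 and 0.99969, median 0), and its member values matched those ratios once turned into log2. Kap had -0.546 and -0.6137 in both. Agilent Feature Extraction is version 8.1 per the submitters' processing notes and 9.1.3.1 per the file headers. In R 4.3.3 with limma 3.58.1, background was corrected by normexp (offset 50) and ratios were normalized by loess (span 0.3), with control spots at weight 0 and spots flagged as outliers (18 and 26) left out. No spot was saturated, and 72.8% to 76.6% were well above background per channel. Ratios of the Cy3-mutant array were turned in sign. Levels are channel log2 intensities after loess and Aquantile. The brightest probe usable on both arrays stood for a gene. A fold was counted when both arrays passed it in 1 direction. The calculation was tested on simulated data. RefSeq (GRCm38.p6) named 22951 probes by accession. Genes named beside the members were the highest and lowest of each proximal tubule list, those past 2-fold, the largest change of each marker list, and fixed pancreas and sex-linked genes. Members and lists were chosen with earlier results of these data known. Alternatives changed centring, ratio source, background correction, flagged spots, probe rule, filter and arrays used.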

Additional observations from a re-analysis of the deposited data

How the results depend on the processing

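No paired analysis was possible because there was 1 pool per genotype and no test. Kap, Miox, Slc7a9 and Lrp2 kept the sign of their mean under all 12 alternatives, as did Slc34a1, which came down to 0.002 with median centring. Not all alternatives could change a member. The filters could not, since all 14 probes stood well above background, and the probe rule could not where a gene had 1 probe. The value table repeats the scanner's ratio. Cubn changed sign under 5, Fbp1 under 2, and Slc5a2, Pck1 and Aqp1 under 1 each. The count of members past 2-fold on both arrays stayed at 0 under each alternative. The count past 1.5-fold was 1 with median centring (Kap) and 2 with the Cy3-mutant array alone (Kap and Miox). The members' median was -0.33 with median centring, and -0.10 and -0.13 with either array alone. Over all genes, the count past 2-fold was 40 as reported and 52 with median centring. It was 175 with the scanner's ratio and the authors' value table, and 100 with an offset of 0. The count of all genes past 1.5-fold was 185 as reported and 277 with median centring. It was 565 with both the scanner's ratio and the value table, 388 with an offset of 0, and 370 and 288 with either array alone. For other proximal tubule genes, those 1.5-fold higher numbered 0 with median centring and 4 with the Cy5-mutant array alone. Those past 2-fold numbered 2 with median centring, and 1 with the scanner's ratio, the value table, an offset of 0 and either array alone. Their median was -0.184 with median centring, 0.042 with the scanner's ratio and the value table, 0.028 with an offset of 0, 0.024 without background correction and with a loess span of 0.1, and 0.005 and 0.007 with either array alone. The causes were not tested. One pool per genotype limits all of these values.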
